A study of Mus musculus with 8 samples.

Results

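pB2 is a mouse mammary carcinoma cell line, and its 2 libraries of messenger RNA were set against the 6 libraries of 3 further lines, pB3, Epcam hi and 687g, 2 libraries each. The members described here are the genes whose expression was switched in pB2 alone. A gene was counted as on only in pB2 when it had at least 10 counts-per-million (CPM) in both pB2 libraries and under 1 CPM in all 6 others. It was counted as off only when it was under 1 CPM in both pB2 libraries and at least 10 CPM in all 6 others. Of 53379 genes, 137 were on only in pB2 and 92 were off only. These sets were chosen by the very values they display, so their levels are a description and carry no test.

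pB2 and pB3 come from tumours of C57BL/6 mice carrying MMTV-PyMT, a transgene in which the mouse mammary tumour virus promoter drives the polyoma middle T oncogene in mammary epithelium. Epcam hi and 687g come from C57BL/6 mice with MMTV-PyMT together with a Snail-IRES-YFP reporter. All 4 lines were grown as adherent monolayers in the same serum-containing medium, with no treatment listed. Each is a single line, so what sets pB2 apart cannot be separated from the tumour it came from, and the labels state neither clonality nor passage. Nor do they say whether the 2 libraries of a line were separate cultures, so every p-value below measures only the spread between these libraries. CPM is computed here on library totals scaled by the trimmed mean of M values (TMM).

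The virgin mammary gland has an inner luminal layer and an outer basal layer. Luminal progenitors and milk-forming alveolar cells depend on the transcription factor Elf5 and on the prolactin receptor, and basal cells on the p53 relative p63, keratin 14 and contact with a laminin and collagen IV basement membrane. Invasion of carcinoma cells through that membrane draws on matrix metalloproteinases and the plasminogen activator system, whose genes are classical targets of AP-1, a transcription factor built of Fos and Jun proteins.

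Depth was 12442730 and 16895237 counted reads for pB2, against 13701156 to 19149916 for the other 6 libraries. The pB2 libraries correlated at 0.992 and those of the other lines at 0.976 to 0.993 (Pearson, log2 CPM, across genes, which are not independent). Between the pB2 libraries 2.96% of genes were over 2-fold apart, against 3.22% (pB3), 13.38% (Epcam hi) and 6.32% (687g). Of the 11 mammary epithelial markers, Epcam had 579 and 556 CPM in pB2, against 279.9 and 266 CPM in pB3, 1362 and 1528 CPM in Epcam hi, and 3.88 and 3.71 CPM in 687g, and Cdh1, which encodes E-cadherin, had 144 and 168 CPM in pB2, against 52.2 and 51.3 CPM in pB3, 442 and 517 CPM in Epcam hi, and 1.91 and 0.741 CPM in 687g. Krt5 was under 1 CPM in every library. Of the 10 epithelial markers tested, Krt14 and Elf5 were higher and Krt7, Krt8 and Krt18 lower in pB2 than in each other line, and the 11 summed to 1739.5 and 1617 CPM in pB2, against 2301 to 9156 CPM elsewhere. The summed CPM of the 13 leukocyte markers was 0.816 and 0.854 in pB2 and 0.271 to 2.92 in the other lines, with Ptprc at 0 in pB2. Several stromal markers were higher in pB2: the 12 fibroblast markers summed to 63.6 and 85.5 CPM in pB2 and 2.67 to 21.5 CPM elsewhere, carried by Pdgfra, Col1a1 and Fap, while Col1a2, Lum, Thy1 and Dpt stood at 0 in pB2. The 10 endothelial markers summed to 78.2 and 99.9 CPM in pB2 and 10.6 to 40.8 CPM elsewhere, carried by Flt1 and Erg, while Cdh5, Kdr, Tek and Vwf stood at 0 in pB2. The 8 adipocyte markers summed to 19.8 and 21.2 CPM in pB2 and 0.261 to 26.8 CPM elsewhere, nearly all of it Lpl in pB2, with Adipoq at 0. What part such transcripts have in the results below was not tested.

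The question put to the data was which genes, and of what function, distinguish pB2 from lines derived from the same oncogene. pB2 held more such genes than any other line did by the same rule. On only and off only genes numbered 137 and 92 for pB2, against 17 and 2 (pB3), 8 and 18 (Epcam hi) and 27 and 21 (687g). As a share of all 53379 genes, the pB2 sets make up 0.257% and 0.172%. The first principal component of log2 CPM, with 53.4% of the variance, placed the pB2 libraries at -175 and -173 and the other 6 between 44.2 and 78.1. The second, with 26.5%, separated Epcam hi from 687g.

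**Figure D1:**
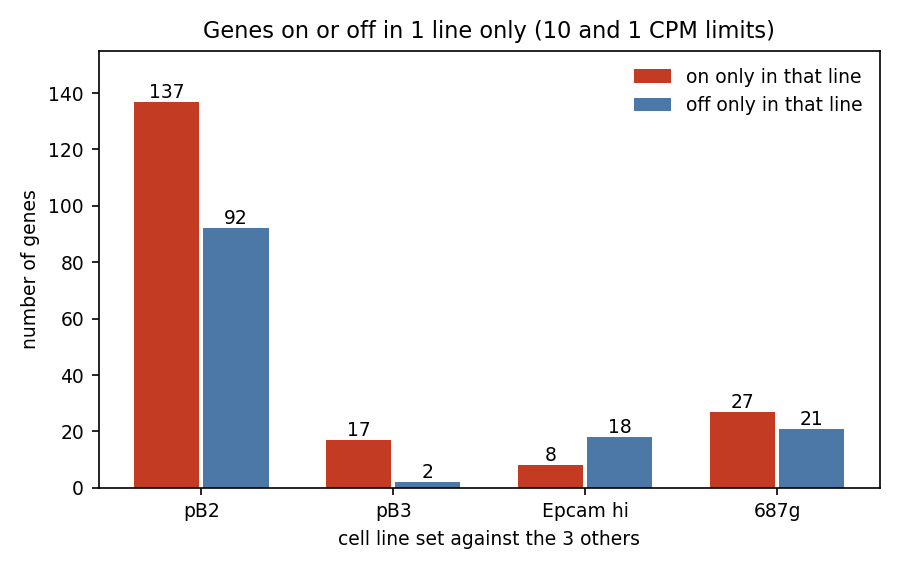
Number of genes (vertical axis) on only or off only in each of the 4 lines when that line is set against the other 3, by the limits of 10 and 1 CPM. The pB2 bars reach 137 and 92 genes, against at most 27 and 21 in another line.

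Across all 15890 genes with enough counts to test, edgeR's quasi-likelihood test with Benjamini-Hochberg adjustment called 8533 (53.7%) between pB2 and the mean of the other lines, 4569 higher (28.8%) and 3964 lower (24.9%) in pB2. Without pB2 replicate 1 the lower count was 2624. Against pB3 it called 7116 genes (44.8%), 23.2% of those tested being higher and 21.6% lower, a direction that turned when either pB3 library was left out. Against Epcam hi it called 8172 (51.4%), 25.6% higher and 25.8% lower (4069 and 4103 genes), a near balance whose direction turned under RLE factors (4207 and 3930), DESeq2 (3971 and 3674) and limma-voom (4125 and 3833). Against 687g it called 8309 (52.3%), 26.7% higher and 25.6% lower, a direction that turned without 687g replicate 2. A stricter rule, a call in the same direction against each of the 3 lines, left 4305 genes (27.1%), of which 2317 were higher (14.6%) and 1988 lower (12.5%) in pB2. The 3 comparisons share the pB2 libraries, so that count is not 3 independent observations. The balance of directions depends on the scaling: with raw totals in place of TMM, 2897 genes were higher and 1576 lower against each line, 5528 and 3135 against the mean, 4591 and 2766 against pB3, 4539 and 3527 against Epcam hi, and 5289 and 3163 against 687g, with a shift of 0.19 in the median log2 difference.

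The 137 on only genes comprise 18 metabolic and redox enzymes, 17 intracellular signalling genes, 15 cytoskeletal and scaffold genes, 12 receptors, 12 secreted signalling proteins, 12 transcription regulators, 11 channels and transporters, 7 acute-phase and other secreted proteins, 6 matrix genes, 6 long noncoding RNAs, 5 proteases, 2 junction genes and 14 with no function assigned. The 92 off only genes comprise 12 receptors, 11 signalling genes, 9 enzymes, 9 long noncoding RNAs, 7 secreted signalling proteins, 6 transcription regulators, 5 channels and transporters, 5 proteases, 4 cytoskeletal genes, 4 junction genes, 2 matrix genes, 2 other secreted proteins and 16 unassigned. These groupings were made by hand after the members were known.

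In the on only set the mean CPM in pB2 ran from 10.5 to 174 with a median of 21.2, and 8 genes exceeded 100 CPM. In the other lines the median of the mean was 0.109 CPM, and 8 genes had 0 counts in all 6 libraries. Together the 137 genes took 0.433% and 0.446% of scaled counts in the pB2 libraries, against 0.0018% to 0.0027% in the others. For the 129 genes with at least 1 count elsewhere, the ratio of pB2 to the next highest line had a median of 126 and ranged from 14.6 to 1141. In bulk RNA a gene that is low because few cells express it cannot be told apart from a gene that is low in every cell.

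Receptors and receptor modulators were 12 of the on only genes. Ntrk2 encodes TrkB, the receptor tyrosine kinase for brain-derived neurotrophic factor, and lies at chr13:58806569-59133970 of GRCm38. It had 114 and 129 CPM in pB2, against 0.135 and 0.0652 CPM in pB3, 0.408 and 0.163 CPM in Epcam hi, and 0.169 and 0.472 CPM in 687g. No library of another line came within 100-fold of either pB2 library. Prlr, the prolactin receptor, had 55.7 and 84.3 CPM in pB2, against 0 and 0 CPM in pB3, 0.0680 and 0.0544 CPM in Epcam hi, and 0.0562 and 0.202 CPM in 687g. Against pB3, where no read was counted, pB2 was at least 836-fold higher, taking 3 counts over both pB3 libraries as the floor. Kit, the receptor for stem cell factor, which marks luminal progenitors in the mouse gland, had 21.1 and 28.97 CPM in pB2, against 0 and 0.0652 CPM in pB3, 0.0680 and 0.109 CPM in Epcam hi, and 0 and 0.0674 CPM in 687g. Fgfr2, a receptor for fibroblast growth factors needed for mammary bud and duct growth, had 21.8 and 25.2 CPM in pB2, against at most 0.218 CPM in any other library. Notch3 had 30.2 and 45.1 CPM in pB2, against at most 0.787 CPM in any other library, and Celsr1, a planar polarity cadherin, 27.3 and 45.2 CPM in pB2, against at most 0.913 CPM in any other library. Shisa2, which restrains the maturation of Wnt and Fgf receptors in the endoplasmic reticulum, had 66.4 and 67.01 CPM in pB2, against at most 0.435 CPM in any other library. Every one of these genes was separated from all 6 other libraries, as the rule requires.

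Among secreted signals, Ptn encodes pleiotrophin, a heparin-binding growth factor. It had 133 and 109 CPM in pB2, against 0.0677 and 0.196 CPM in pB3, 0.136 and 0.109 CPM in Epcam hi, and 0.112 and 0.404 CPM in 687g. Wnt5b, a Wnt ligand, had 63.4 and 50.7 CPM in pB2, against 0.338 and 0.521 CPM in pB3, 0.204 and 0.218 CPM in Epcam hi, and 0.731 and 0.943 CPM in 687g, and the 687g libraries came close to the limit of 1 CPM. Several modulators of Wnt signalling were present together in pB2. The R-spondins amplify Wnt signalling through Lgr receptors: Rspo1 had 18.2 and 17.7 CPM in pB2, against at most 0.202 CPM in any other library, and Rspo3 had 13.8 and 16.8 CPM in pB2, against at most 0.0677 CPM in any other library. Wif1, a secreted Wnt inhibitor, had 19.5 and 20.2 CPM in pB2, against 0.0677 and 0.0652 CPM in pB3, 0 and 0 CPM in Epcam hi, and 0 and 0 CPM in 687g. Gdf5, a BMP-family ligand, had 20.9 and 18.2 CPM in pB2, against 0.0677 and 0 CPM in pB3, 0 and 0.0544 CPM in Epcam hi, and 0.0562 and 0 CPM in 687g. Tgfb2 had 12.4 and 14.3 CPM in pB2, against at most 0.327 CPM in any other library, and Fgf1 27.1 and 27.7 CPM in pB2, against at most 0.326 CPM in any other library. Scube1, Cytl1, Kng2 and Edn2 complete the group of 12, at 10.7 to 50.8 CPM in pB2.

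Transcription regulators of mammary lineages were also among them. Tfap2c encodes AP-2 gamma, a regulator of luminal differentiation, at chr2:172549593-172558622. It had 181 and 167 CPM in pB2, against 0.271 and 0.0652 CPM in pB3, 0.544 and 0.490 CPM in Epcam hi, and 0.225 and 0.202 CPM in 687g, and the ratio to the nearest line, Epcam hi, was 337. Elf5, the alveolar regulator, had 51.9 and 51.7 CPM in pB2, against 0 and 0 CPM in pB3, 0.0680 and 0 CPM in Epcam hi, and 0.112 and 0.135 CPM in 687g. Trp63, which encodes p63, had 35.4 and 34.1 CPM in pB2, against 0 and 0 CPM in pB3, 0.0680 and 0.0544 CPM in Epcam hi, and 0.112 and 0.135 CPM in 687g. Genes for a luminal alveolar and for a basal regulator were thus both transcribed in pB2 cultures and near 0 in the other 3 lines. Whether the same cells hold both cannot be told from bulk libraries. Cited4, a CBP-binding coregulator, had 108 and 108 CPM in pB2, against 0.338 and 0.196 CPM in pB3, 0.612 and 0.163 CPM in Epcam hi, and 0 and 0.337 CPM in 687g. Bcl11a, a zinc finger factor of the fetal and progenitor gland, had 10.8 and 12.5 CPM in pB2, against at most 0.196 CPM in any other library, and Sox11, an embryonic SOX factor, 10.2 and 15.7 CPM in pB2, against at most 0.204 CPM in any other library. Peg3, a paternally expressed imprinted zinc finger gene, had 43.01 and 59.5 CPM in pB2, against 0.406 and 0.456 CPM in pB3, 0 and 0.0544 CPM in Epcam hi, and 0.0562 and 0.135 CPM in 687g. The other members of the group, Stox2, Zfp521, Zfp711, Scml4 and Ppargc1a, had 10.4 to 42.7 CPM in pB2.

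Secreted acute-phase and host-defence proteins formed a further group. Hp encodes haptoglobin, the haemoglobin-binding acute-phase protein of plasma, at chr8:109575128-109579172. It had 134 and 91.7 CPM in pB2, against 0.0677 and 0.130 CPM in pB3, 0.0680 and 0.0544 CPM in Epcam hi, and 0.0562 and 0.0674 CPM in 687g. The other lines had 2 or 3 reads each over both libraries. Against pB3, with 3 reads, the ratio was 1265 with a 95% counting interval of 433 to 6139. Wfdc3, a whey acidic protein family member, had 91.1 and 85.7 CPM in pB2, against at most 0.406 CPM in any other library. Lbp, the lipopolysaccharide-binding protein, had 26.7 and 26.4 CPM in pB2, against at most 0.109 CPM in any other library. Chil1, a chitinase-like lectin, had 19.1 and 15.3 CPM in pB2, against at most 0.0562 CPM in any other library, and Azgp1, zinc alpha-2 glycoprotein, 16.5 and 12.6 CPM in pB2, against at most 0.136 CPM in any other library.

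The enzymes and transporters of the on only set act on iron, xenobiotics, sugars and lipids. Steap4, a metalloreductase that reduces iron and copper at the cell surface and in endosomes, had 180.0 and 167 CPM in pB2, against 0.271 and 0.326 CPM in pB3, 0.136 and 0.109 CPM in Epcam hi, and 0.0562 and 0.135 CPM in 687g. Gsta3, an alpha class glutathione transferase, had 133 and 129.7 CPM in pB2, against 0.135 and 0.130 CPM in pB3, 0.0680 and 0.218 CPM in Epcam hi, and 0.225 and 0.337 CPM in 687g. Gsta3 has close paralogs whose reads can be misassigned, so its level is uncertain. Cyp1b1, an oestrogen- and xenobiotic-metabolising cytochrome P450, had 50.05 and 59.6 CPM in pB2, against at most 0.618 CPM in any other library. Fbp1, the gluconeogenic fructose bisphosphatase, had 42.2 and 34.5 CPM in pB2 and no read in any other library. Slc16a7, a monocarboxylate transporter, had 35.00 and 37.8 CPM in pB2, against at most 0.136 CPM in any other library. Atp6v1b1, a vacuolar proton pump subunit, had 34.4 and 43.8 CPM in pB2, against at most 0.196 CPM in any other library.

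The cytoskeletal, matrix and junction members were led by Sntb1, which encodes beta-1-syntrophin, an adaptor of the dystrophin complex. It had 102 and 106 CPM in pB2, against 0.135 and 0.0652 CPM in pB3, 0.136 and 0 CPM in Epcam hi, and 0.112 and 0.202 CPM in 687g. Lama4, the alpha-4 laminin chain, had 58.6 and 66.4 CPM in pB2, against 0.271 and 0.196 CPM in pB3, 0 and 0.163 CPM in Epcam hi, and 0.0562 and 0.202 CPM in 687g. Prelp, a leucine-rich proteoglycan that binds collagen, had 57.5 and 71.9 CPM in pB2, against 0.271 and 0.130 CPM in pB3, 0.0680 and 0 CPM in Epcam hi, and 0.394 and 0.135 CPM in 687g. Chains of fibril-associated and minor fibrillar collagens were on as well: Col9a1 had 58.2 and 45.6 CPM in pB2, against at most 0.204 CPM in any other library, and Col11a1 24.02 and 36.4 CPM in pB2, against at most 0.203 CPM in any other library. Of the 2 claudins, Cldn8 had 15.5 and 16.3 CPM in pB2 and no read elsewhere, and Cldn2, which forms cation pores in tight junctions, had 26.6 and 25.02 CPM in pB2, against at most 0.404 CPM in any other library. The membrane proteases Tmprss13 and Hpn (hepsin), both serine proteases, had 55.9 and 51.9 CPM in pB2, against at most 0.272 CPM in any other library, and 38.1 and 36.7 CPM in pB2, against at most 0.272 CPM in any other library, in that order. 0610040J01Rik, a gene of unassigned function, had 92.7 and 85.7 CPM in pB2, against at most 0.450 CPM in any other library. Since a longer transcript yields more reads, levels of different genes compare only per length. Per kilobase of annotated exon the mean pB2 level was 86.7 CPM for Cited4, 70.4 for Hp, 55.0 for Steap4, 47.3 for Tfap2c and 6.30 for Ntrk2, whose exons span 19292 bases. That length joins the exons of all annotated transcripts of a gene. It can exceed the length of the transcript present, and the level per kilobase is then too low.

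**Figure D2:**
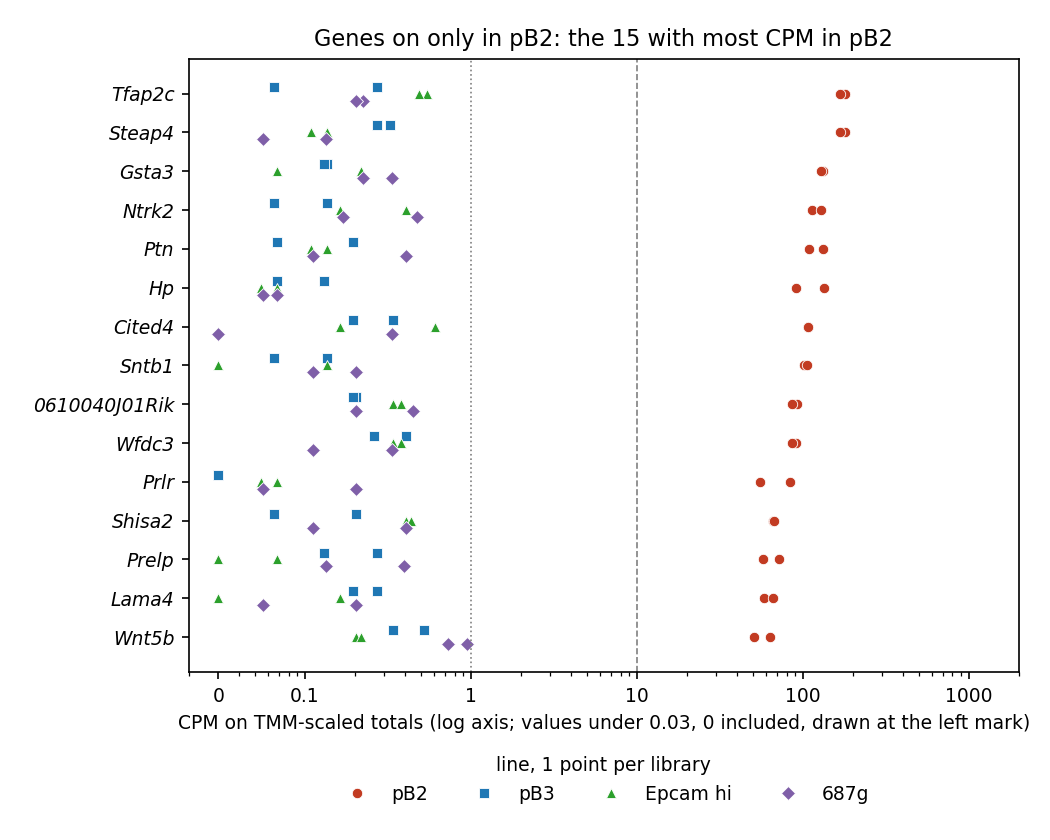
CPM (log axis) in each of the 8 libraries for the 15 on only genes with the highest mean CPM in pB2, with the limits of 1 and 10 CPM as dotted and dashed lines. The pB2 points lie between 50.7 and 181 CPM and every other point is under 1 CPM, up to 0.943 for Wnt5b in 687g.

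The off only set was smaller. The mean over the 6 other libraries ran from 16.4 to 384 CPM with a median of 56.0, against 0 to 0.882 CPM with a median of 0.316 in pB2. The 92 genes took 0.0035% and 0.0032% of scaled counts in pB2, against 0.651% to 0.965% elsewhere. Only Foxl2os, an antisense RNA counted on its own strand, had no read in either pB2 library, and 8 genes had at most 3 reads in pB2. Among the other lines the highest mean was in Epcam hi for 42 genes, in 687g for 29 and in pB3 for 21. For the 91 genes with reads in pB2, the ratio of the lowest other line to pB2 had a median of 86.0 and ranged from 21.4 to 519.

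Type IV collagen was at the head of the list. Col4a1 and Col4a2 encode the alpha-1 and alpha-2 chains that form the network of nearly all basement membranes. They lie head to head at chr8:11198423-11312826 on the minus strand and chr8:11312805-11449287 on the plus strand, with starts that overlap. Col4a1 had 0.890 and 0.427 CPM in pB2, against 301 and 291 CPM in pB3, 271 and 312 CPM in Epcam hi, and 287 and 159 CPM in 687g. Col4a2 had 0.519 and 0.534 CPM in pB2, against 203 and 196 CPM in pB3, 159 and 171 CPM in Epcam hi, and 170.5 and 99.6 CPM in 687g. Both chains were thus low in both pB2 libraries and at 99.6 CPM or more in the other lines, with 687g replicate 2 the lowest of the 6. The shared promoter of the pair is shown for that reason, as annotated by RefSeq for Col4a2 on the plus strand of GRCm38.p6 at chr8:11312555-11312854, from 250 bases before the start to 50 after. It holds 33 CG dinucleotides and no match to the 4 motifs listed further on, so nothing in it is in capitals.

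Col4a2: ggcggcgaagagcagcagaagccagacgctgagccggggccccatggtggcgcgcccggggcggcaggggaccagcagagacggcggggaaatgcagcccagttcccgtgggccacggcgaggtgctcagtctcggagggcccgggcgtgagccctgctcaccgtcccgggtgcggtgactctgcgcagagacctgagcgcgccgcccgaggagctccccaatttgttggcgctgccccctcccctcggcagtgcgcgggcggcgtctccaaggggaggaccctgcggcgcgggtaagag

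Among proteases, Mmp3 (stromelysin 1) and Mmp10 (stromelysin 2) degrade proteoglycans, laminin and non-fibrillar collagens and activate other metalloproteinases. Mmp3 had 0.0741 and 0.267 CPM in pB2, against 373 and 403 CPM in pB3, 27.9 and 24.1 CPM in Epcam hi, and 53.5 and 119 CPM in 687g. Mmp10 had 0.222 and 0.320 CPM in pB2, against 56.4 and 61.8 CPM in pB3, 640.2 and 239 CPM in Epcam hi, and 37.8 and 88.8 CPM in 687g. The 3 other lines differed widely among themselves, pB3 having the most Mmp3 and Epcam hi the most Mmp10, yet every library stood above pB2 by the margin the rule sets. Plat, tissue plasminogen activator, had 0.371 and 0.0534 CPM in pB2, against 11.5 to 101 CPM in the other 6 libraries. The membrane metalloproteinases Adam12 and Adam19 had 0.297 and 0.427 CPM in pB2, against 22.3 to 88.8 CPM in the other 6 libraries, and 0.0741 and 0.107 CPM in pB2, against 17.8 to 145 CPM in the other 6 libraries, in that order.

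The Mmp3 and Mmp10 promoters are shown because they carry 2 motifs close to the start. They are RefSeq windows of GRCm38.p6, both on the plus strand, at chr9:7445572-7445871 and chr9:7502092-7502391. Capitals mark the AP-1 motif TGANTCA, which reads alike on both strands, and the TATA box TATAAA, and no other motif. Each window also holds a match to the C/EBP-like motif TTGCNNAA, counted further on, which is left in lower case. The first base of the AP-1 match lies 46 bases before the start in Mmp3 and 63 before it in Mmp10.

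Mmp3: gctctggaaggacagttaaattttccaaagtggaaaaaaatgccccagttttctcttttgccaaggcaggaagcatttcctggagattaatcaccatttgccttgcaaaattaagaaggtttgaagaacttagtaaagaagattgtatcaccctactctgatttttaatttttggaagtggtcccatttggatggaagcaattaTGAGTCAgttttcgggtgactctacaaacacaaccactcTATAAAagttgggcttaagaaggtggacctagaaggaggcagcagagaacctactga
Mmp10: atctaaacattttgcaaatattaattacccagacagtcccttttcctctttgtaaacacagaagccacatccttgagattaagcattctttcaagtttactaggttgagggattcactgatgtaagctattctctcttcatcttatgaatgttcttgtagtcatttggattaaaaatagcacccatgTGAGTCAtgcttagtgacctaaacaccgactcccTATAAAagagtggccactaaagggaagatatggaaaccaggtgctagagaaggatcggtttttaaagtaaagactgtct

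Transcription regulators off in pB2 included 2 Fos-family subunits of AP-1. Fosl1, which encodes Fra-1, had 0.0741 and 0.160 CPM in pB2, against 68.02 and 72.6 CPM in pB3, 40.8 and 50.7 CPM in Epcam hi, and 43.7 and 37.6 CPM in 687g. Fosb had 0.222 and 0.160 CPM in pB2, against 21.7 and 19.8 CPM in pB3, 11.9 and 13.9 CPM in Epcam hi, and 24.6 and 18.3 CPM in 687g. In both genes the pB2 libraries had a few reads and no other library was under 11 CPM. Klf4, a zinc finger factor of epithelial differentiation and pluripotency, had 0.222 and 0.427 CPM in pB2, against 26.7 and 26.5 CPM in pB3, 12.3 and 18.2 CPM in Epcam hi, and 25.2 and 19.1 CPM in 687g. Fhl2, a LIM-domain coactivator, had 0.741 and 0.480 CPM in pB2, against 118 and 125 CPM in pB3, 177 and 115 CPM in Epcam hi, and 99.6 and 89.5 CPM in 687g. Zfpm2 and Rhox5 complete the group, at most 41.6 and 17.9 CPM outside pB2.

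Receptors and surface proteins were the most numerous assigned class of the off only set, with 12 genes. Jag1 encodes a Notch ligand, and had 0.816 and 0.694 CPM in pB2, against 94.9 and 94.9 CPM in pB3, 63.1 and 124 CPM in Epcam hi, and 212 and 193 CPM in 687g. Thrombomodulin and the endothelial protein C receptor act together in the protein C anticoagulant pathway and were both off. Thbd had 0.371 and 0.160 CPM in pB2, against 93.3 and 97.2 CPM in pB3, 168 and 143 CPM in Epcam hi, and 106 and 151 CPM in 687g, and Procr, which also marks a multipotent cell population of the mouse mammary gland, had 0.297 and 0.213 CPM in pB2, against 46.9 and 47.3 CPM in pB3, 423 and 288 CPM in Epcam hi, and 74.3 and 76.02 CPM in 687g. Ly6a, the stem cell antigen Sca-1, had 0.519 and 0.640 CPM in pB2, against 58.1 and 59.2 CPM in pB3, 1149 and 979 CPM in Epcam hi, and 32.1 and 25.1 CPM in 687g, a spread of over 30-fold among the other lines. As a member of the Ly6 family it has close paralogs. Itga2, the collagen-binding integrin alpha-2, had 0.297 and 0.267 CPM in pB2, against 51.8 and 53.3 CPM in pB3, 108 and 151 CPM in Epcam hi, and 15.5 and 22.6 CPM in 687g, and Efnb2, an ephrin ligand, 0.371 and 0.694 CPM in pB2, against 20.8 to 85.3 CPM in the other 6 libraries.

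Secreted signals off in pB2 included Nppb, the precursor of brain natriuretic peptide, with 0.148 and 0.320 CPM in pB2, against 172 and 147 CPM in pB3, 131 and 159 CPM in Epcam hi, and 67.02 and 79.7 CPM in 687g. Ccbe1, which promotes the processing of vascular endothelial growth factor C, had 0.222 and 0.480 CPM in pB2, against 132 and 132 CPM in pB3, 129 and 193 CPM in Epcam hi, and 167 and 135 CPM in 687g. The cytokines Tslp, which acts on dendritic and T cells, and Il24 were off in pB2 and uneven elsewhere. Tslp had 0.667 and 0.213 CPM in pB2, against 393 and 364 CPM in pB3, 14.7 and 11.8 CPM in Epcam hi, and 63.4 and 95.1 CPM in 687g. Il24 had 0.297 and 0.373 CPM in pB2, against 56.9 and 57.8 CPM in pB3, 433 and 431 CPM in Epcam hi, and 18.4 and 37.5 CPM in 687g. Wnt7a had 0.222 and 0.160 CPM in pB2, against 11.99 to 173 CPM in the other 6 libraries. Of the Wnt ligands, Wnt5b was thus on only and Wnt7a off only in pB2. Wnt5a, in neither set, was called lower in pB2 than in each other line. Its edgeR log2 difference from their mean was -7.36, and it was -10.5 without pB2 replicate 1 and -6.18 without pB2 replicate 2.

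Intracellular members included regulators of G-protein signalling, a cyclin and adaptors. Rgs16, a GTPase activator for G-protein alpha subunits, had 0.371 and 0.213 CPM in pB2, against 50.6 and 47.7 CPM in pB3, 403 and 485 CPM in Epcam hi, and 49.3 and 53.8 CPM in 687g, and Rgs17 0.445 and 0.320 CPM in pB2, against 35.8 to 476 CPM in the other 6 libraries. Ccnd2, cyclin D2, had 0.222 and 0.107 CPM in pB2, against 12.2 to 104 CPM in the other 6 libraries. Flnc encodes filamin C, an actin cross-linker of muscle, and had 0.816 and 0.267 CPM in pB2, against 195 and 183 CPM in pB3, 194 and 246 CPM in Epcam hi, and 194 and 122 CPM in 687g. Parvb, an adaptor at integrin adhesions, had 0.0741 and 0.160 CPM in pB2, against 59.1 to 135 CPM in the other 6 libraries. Cdh2, N-cadherin, had 0.371 and 0.534 CPM in pB2, against 21.8 to 98.2 CPM in the other 6 libraries, and Pkp1, a desmosomal plaque protein, 0.371 and 0.694 CPM in pB2, against 17.7 to 229 CPM in the other 6 libraries. Acsbg1, an acyl-CoA synthetase, had 0.0741 and 0.213 CPM in pB2, against 60.05 to 228 CPM in the other 6 libraries, Nipal1, a magnesium transporter, 0.222 and 0.0534 CPM in pB2, against 54.6 to 98.6 CPM in the other 6 libraries, and Fam111a, a nuclear protease, 0.741 and 0.534 CPM in pB2, against 64.1 to 156 CPM in the other 6 libraries. The long noncoding RNA 3300005D01Rik had 0.667 and 0.534 CPM in pB2, against 164 and 161 CPM in pB3, 349 and 266 CPM in Epcam hi, and 619.7 and 723 CPM in 687g.

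**Figure D3:**
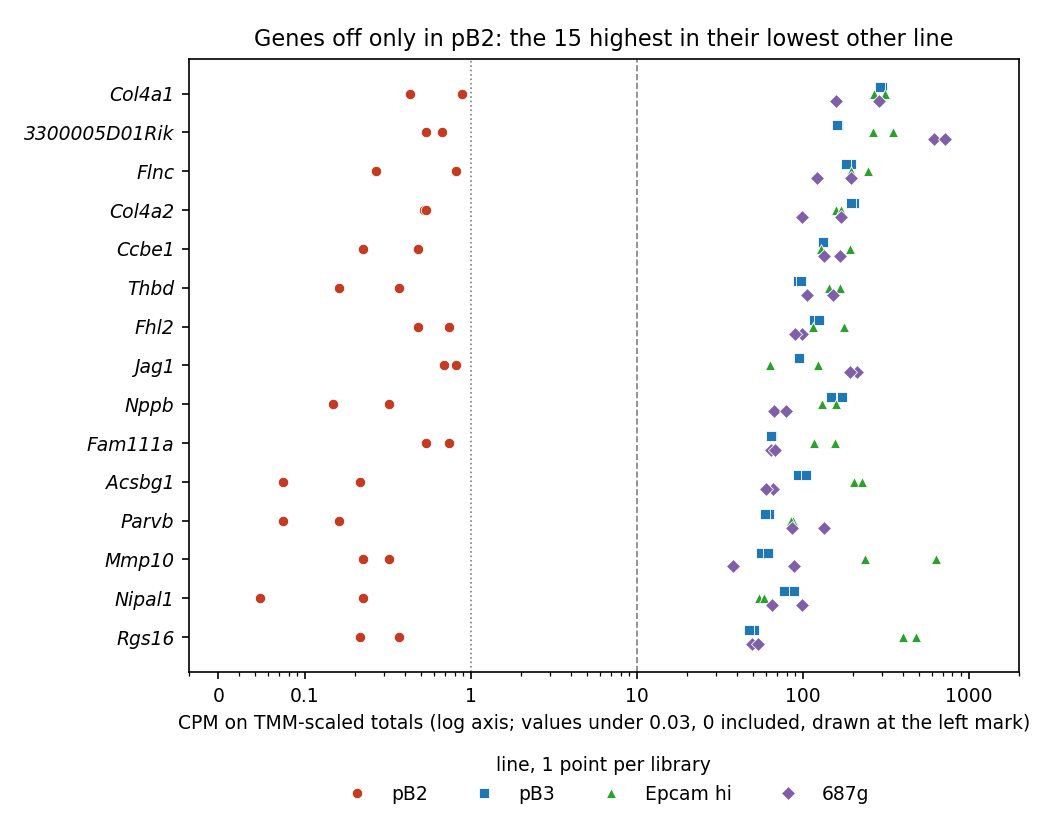
CPM (log axis) in each of the 8 libraries for the 15 off only genes that are highest in their lowest other line, with the limits of 1 and 10 CPM as dotted and dashed lines. The pB2 points are at most 0.890 CPM, and the others range from 37.8 to 723 CPM.

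Promoter sequence was not used by the rule, and 4 motifs were searched on both strands of RefSeq windows of 300 bases, 250 before the start and 50 after. Windows were found for 98 of the 137 on only genes (131 windows), 70 of the 92 off only genes (86 windows) and 10565 genes tested (13541 windows). The AP-1 motif TGANTCA was in 20 of 86 off only windows (23.3%) and 10 of 131 on only windows (7.63%), against 5.49% of windows of genes tested and 7.81% of all 32851 windows in the table. Counted by gene, 28.6% of off only genes, 8.16% of on only genes and 6.597% of genes tested had a match in at least 1 window. The STAT motif TTCNNNGAA was in 12.98% of on only and 11.6% of off only windows, against 6.85% for genes tested and 8.30% of all windows. The C/EBP-like motif TTGCNNAA was in 16.0% and 11.6%, against 8.51% and 10.8%. The TATA box was in 5.34% and 14.0%, against 7.27% for genes tested and 13.6% of all windows. The off only share is thus near that of all windows and above that of genes tested. Counted by gene, the TATA box was in 7.14% of on only, 17.1% of off only and 8.82% of genes tested. In the same order the STAT motif was in 17.3%, 12.9% and 8.28%, and the C/EBP-like motif in 18.4%, 14.3% and 10.2%. Both sets were poorer in CG than other expressed genes. The median was 8 CG dinucleotides per on only window and 10 per off only window, against 20 for genes tested and 7 for all windows. A match is a string of letters, not a bound site, and these shares were not tested.

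**Figure D4:**
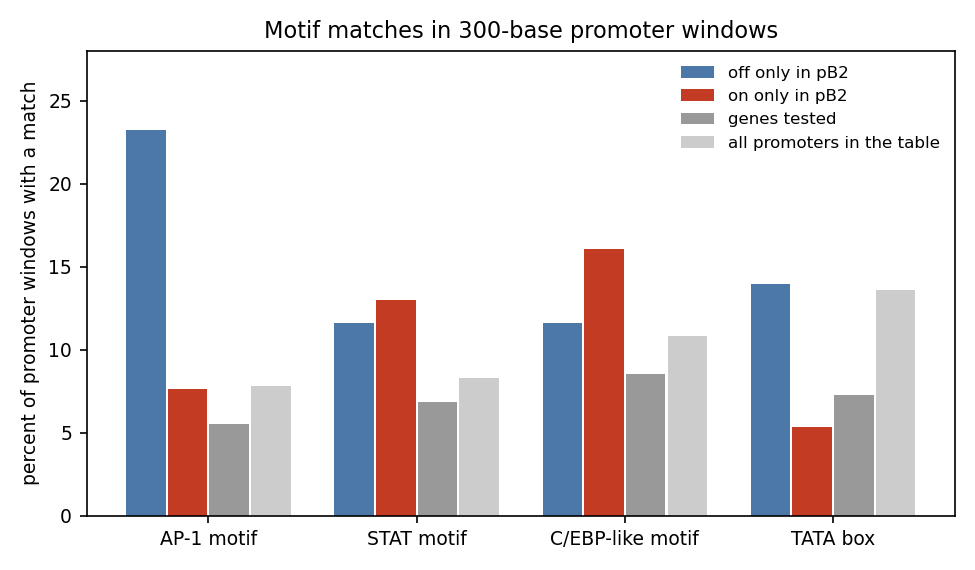
Percent of 300-base promoter windows (vertical axis) with at least 1 match to each of 4 motifs, for off only genes, on only genes, genes tested and all windows in the table. The AP-1 bar of the off only set reaches 23.3%, against 7.63%, 5.49% and 7.81% for the other bars.

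Beyond the stromelysins, AP-1 matches lay in the windows of off only genes of several classes, and 41-base stretches around 8 of them are shown with the motif in capitals, read along the strand of the gene in GRCm38.p6. Adam19 (chr11:46055836-46055876, plus strand) and Padi4 (chr4:140774234-140774274, minus strand), a peptidylarginine deiminase, have the match 131 and 54 bases before the start. Procr (chr2:155751046-155751086, plus strand) and Gpr39 (chr1:125676846-125676886, plus strand), a zinc-sensing receptor, have it 154 and 133 bases before. Rgs17 (chr10:5922499-5922539, minus strand) and Kcnk2 (chr1:189344295-189344335, minus strand), a potassium channel, have it 122 and 126 bases before. Pir (chrX:164269202-164269242, plus strand), which encodes pirin, has it 212 bases before, and the noncoding 3300005D01Rik (chr17:5798437-5798477, plus strand) 203 bases before.

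Adam19: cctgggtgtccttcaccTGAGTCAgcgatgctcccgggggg
Padi4: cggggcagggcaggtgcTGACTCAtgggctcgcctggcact
Procr: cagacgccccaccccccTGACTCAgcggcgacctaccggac
Gpr39: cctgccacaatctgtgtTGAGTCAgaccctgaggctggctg
Rgs17: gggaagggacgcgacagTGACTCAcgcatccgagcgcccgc
Kcnk2: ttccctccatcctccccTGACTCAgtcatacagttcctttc
Pir: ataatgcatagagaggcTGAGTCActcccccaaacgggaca
3300005D01Rik: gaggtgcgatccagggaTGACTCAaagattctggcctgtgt

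The members were scattered over the genome with a few neighbouring pairs. Chromosome 5 held 13 of the on only genes (9.49%, against 6.51% of genes tested), and chromosome 1 held 11 of the off only genes (11.96%, against 6.21%). Among genes tested, immediate neighbours in the on only set included Chil1 with Adora1, the noncoding BC016548 with Elf5, and Tmprss13 with Fxyd6. Off only neighbours were Il18rap with Slc9a2, Glrp1 with Gm19589, and Col4a1 with Col4a2. BC016548, upstream of Elf5 on the opposite strand with a gap of 22643 bases, had 18.9 and 19.05 CPM in pB2, against at most 0.0677 CPM in any other library. Of the 274 flanking places of on only genes, 28.5% held a tested gene higher and 9.85% one lower in pB2 than in each other line. Of the 184 flanking places of off only genes, 4.89% held a higher and 29.9% a lower gene. Over all genes tested the shares were 14.6% and 12.5%. Members that flank each other are among those counted, as are genes that overlap a member. Of the overlapping genes, Gm15851 at Prelp was called higher and Gm28513 at Rgs16 lower, while Lypd1 at Gpr39 was not called. The shares were not tested. A gene lying between members of a set, such as Kcnk1, Mmp1a, Txk or Gm44274, is counted once for each of them.

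Genes that missed the limits of the rule, and so lie outside both sets, included genes with some of the highest levels. Igfbp5, which binds insulin-like growth factors and is induced in the involuting mammary gland, had 4562 and 6308 CPM in pB2, against 5.14 and 2.48 CPM in pB3, 4.76 and 2.94 CPM in Epcam hi, and 4.67 and 12.5 CPM in 687g. It was called higher in pB2 than in each line, and higher than their mean by a log2 difference of 10.08 (SE 0.32, adjusted p = 1.91e-11). Igfbp2, a second binding protein, had 1135 and 1057 CPM in pB2, against 1.56 and 1.30 CPM in pB3, 1.22 and 0.762 CPM in Epcam hi, and 1.35 and 1.68 CPM in 687g, a log2 difference of 9.72 (SE 0.17, adjusted p = 4.21e-13). Lcn2, lipocalin 2, an iron-siderophore carrier of the acute phase, had 1386 and 1477 CPM in pB2, against 1.49 and 1.30 CPM in pB3, 4.15 and 1.96 CPM in Epcam hi, and 1.29 and 2.29 CPM in 687g, a log2 difference of 9.51 (SE 0.23, adjusted p = 1.55e-12). In each of the 3 genes the pB2 libraries exceeded the highest other library by over 100-fold. Wfdc18, a whey acidic protein family member, had 627 and 692 CPM in pB2, against 1.08 and 0.456 CPM in pB3, 0.680 and 0.707 CPM in Epcam hi, and 0.731 and 1.21 CPM in 687g, a log2 difference of 9.67 (SE 0.20, adjusted p = 7.80e-13). Arhgef28 (a guanine nucleotide exchange factor) and Atp1b1 (a sodium pump subunit) were higher, at a log2 difference of 8.12 (SE 0.16, adjusted p = 4.55e-13) and 7.69 (SE 0.17, adjusted p = 1.06e-12). All these log2 differences are against the mean of the 3 line coefficients in edgeR's quasi-likelihood fit of all 8 libraries, with p adjusted by Benjamini-Hochberg over 15890 genes.

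In the other direction, Hmga2, an architectural chromatin protein of embryonic and tumour cells, had 1.19 and 1.01 CPM in pB2, against 493 and 491 CPM in pB3, 376 and 506 CPM in Epcam hi, and 613 and 521 CPM in 687g, a log2 difference of -8.83 (SE 0.27, adjusted p = 1.38e-11). Ptgs2, cyclooxygenase 2, had 2.52 and 2.56 CPM in pB2, against 612 and 599.9 CPM in pB3, 1175 and 1303 CPM in Epcam hi, and 929 and 919.7 CPM in 687g, a log2 difference of -8.45 (SE 0.23, adjusted p = 5.27e-12). Areg, the EGF receptor ligand amphiregulin, had 1.63 and 1.01 CPM in pB2, against 320.0 and 309 CPM in pB3, 217 and 424 CPM in Epcam hi, and 647 and 877 CPM in 687g, a log2 difference of -8.37 (SE 0.38, adjusted p = 4.73e-10). In these genes too the pB2 values did not overlap those of any other line. They were named for the size of their smallest difference, so that separation follows from the choice. Over all genes tested, both pB2 libraries were below all 6 others in 21.5% and above them in 24.5%. Prkg2, a cGMP-dependent kinase, was lower, at a log2 difference of -8.79 (SE 0.24, adjusted p = 4.88e-12). Klra4, which belongs to a family of near-identical lectin-like receptors so that its count is uncertain, differed by -9.51 (SE 0.36, adjusted p = 7.64e-11). The noncoding Wincr1 differed by -9.02 (SE 0.42, adjusted p = 5.11e-10), a value that ranged from -9.95 without pB2 replicate 1 to -8.30 without pB2 replicate 2.

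Rosters of related genes place these members in their pathways. Shares are of tested members called in the same direction against each of the 3 other lines by edgeR's quasi-likelihood test (adjusted p under 0.05), to be read against 14.6% higher and 12.5% lower over all genes. Medians are of a log2 difference taken from the mean CPM of each line, with levels under the CPM of 3 counts set to that floor, between pB2 and the mean of the other lines, against -0.04 over all genes. The floor keeps genes with no reads in a line at a bound, so this measure is not the edgeR fitted difference given for single genes, and a median of the fitted values is added where it departs clearly. Since the rosters were drawn up with earlier results known, the counts describe them and no more. A gene with enough counts in pB2 alone enters the test through pB2 and can be called only higher. Oas1a, Zbp1, Csn1s1, Usp29, Hoxa13 and Hoxa4, named below, are of this kind. Roster members that are on only or off only also had their direction fixed in advance, by the rule that chose them. They include 2 acute-phase genes, 4 lineage factors and 4 Wnt pathway genes that are on only. Among those off only are 2 basement membrane genes and 3 of the protease roster. Calls of such genes add nothing to the rule.

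Of 28 acute-phase and antimicrobial genes 14 were tested. Of these 9 were higher and the other 5 were not called, with a median of 3.75 (5.13 from the fitted values). Hp and Lbp are on only genes, so their direction was set by the rule. Saa3 and Bpifb1 lost their call against each line under DESeq2, and Saa3 also with no filter on low counts. Besides Hp, Lbp, Lcn2 and Wfdc18, Slpi, a secretory leukocyte protease inhibitor, had 117 and 104 CPM in pB2, against 2.50 and 2.15 CPM in pB3, 2.99 and 1.90 CPM in Epcam hi, and 6.69 and 7.95 CPM in 687g, a log2 difference of 4.99 (SE 0.16, adjusted p = 2.46e-11). Wfdc2 was not called, being highest in Epcam hi at 2800.2 and 2699 CPM, with 827 and 791 CPM in pB2. Interferon-stimulated genes leaned the same way at lower levels, with 8 of 23 higher and 15 not called, and a median of 1.36. Ifi44, a higher member, lost its call against each line under DESeq2. Oas1a, an oligoadenylate synthetase, had 4.45 and 3.15 CPM in pB2, against 0 and 0.130 CPM in pB3, 0 and 0.109 CPM in Epcam hi, and 0.112 and 0.0674 CPM in 687g, and Zbp1, a nucleic acid sensor, 8.82 and 6.78 CPM in pB2, against 0.203 and 0.261 CPM in pB3, 0.136 and 0.109 CPM in Epcam hi, and 0.225 and 0.270 CPM in 687g. Zbp1 had under 1 CPM and Oas1a under 1 CPM in every other library.

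Of 25 mammary lineage transcription factors 11 were higher and 4 lower, with a median of 2.76 (4.03 from the fitted values). Outside the on only set, Ehf, an epithelial ETS factor related to Elf5, had 67.3 and 84.99 CPM in pB2, against 0.271 and 0 CPM in pB3, 2.79 and 2.39 CPM in Epcam hi, and 0 and 0.0674 CPM in 687g, and Hey1, a Notch target, had 123 and 101 CPM in pB2, against 0.338 and 0.196 CPM in pB3, 0.204 and 0.0544 CPM in Epcam hi, and 18.9 and 16.4 CPM in 687g. Gata3, the regulator of luminal fate, was lower, with 3.93 and 5.23 CPM in pB2, against 37.6 and 37.5 CPM in pB3, 11.4 and 13.7 CPM in Epcam hi, and 59.9 and 37.00 CPM in 687g, a log2 difference of -2.63 (SE 0.24, adjusted p = 4.67e-07). Klf5, Runx1 and Id4 were the other lower members. In the roster of milk and lactation genes 3 of 10 were higher and 1 lower, with a median of 0.83. The summed CPM of this roster was 1198 and 1169 for the pB2 libraries. Those of 687g had more, at 19435 and 18307, as did those of pB3, at 5887 and 6230. Only the Epcam hi libraries had less, at 981 and 970. Csn1s1, alpha-S1 casein, had 3.19 and 4.38 CPM in pB2, against 0 and 0 CPM in pB3, 0 and 0.0544 CPM in Epcam hi, and 0 and 0 CPM in 687g, while Csn3, kappa casein, had more in pB3 than in pB2 and was not called against each line.

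Keratins and other intermediate filaments were 3 higher and 10 lower of 19 tested, with a median of -2.48 (-2.95 from the fitted values). Krt14, the basal keratin, had 223 and 188 CPM in pB2, against 15.1 and 14.5 CPM in pB3, 2.65 and 2.34 CPM in Epcam hi, and 0.506 and 0.404 CPM in 687g, a log2 difference of 6.30 (SE 0.15, adjusted p = 1.59e-12). Its usual partner Krt5 was near 0 in all lines. Krt18, a simple epithelial keratin, had 229 and 197 CPM in pB2, against 1893 and 2082 CPM in pB3, 2905 and 2629 CPM in Epcam hi, and 1169 and 1072 CPM in 687g, a log2 difference of -3.11 (SE 0.18, adjusted p = 4.40e-09). Krt8, its partner, was lower as well, at a log2 difference of -1.90 (SE 0.17, adjusted p = 5.44e-07). Krt16 and Krt20 had no read in pB2, with up to 1.35 and 9.72 CPM elsewhere. Vim, which encodes vimentin, had 13.9 and 14.2 CPM in pB2, against 2325 and 2448 CPM in pB3, 20.6 and 32.3 CPM in Epcam hi, and 3413 and 2342 CPM in 687g, so that pB2 and Epcam hi were both low, and the call against Epcam hi was lost without Epcam hi replicate 2.

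Mesenchymal and caveolar genes were lower in 17 of 27 cases and not called in 10, with a median of -2.91 (-3.30 from the fitted values). Without pB2 replicate 2 the count was 11. Axl, a receptor tyrosine kinase for Gas6, had 2.67 and 1.28 CPM in pB2, against 1115 and 1136 CPM in pB3, 385 and 321 CPM in Epcam hi, and 1096 and 783 CPM in 687g, a log2 difference of -8.56 (SE 0.34, adjusted p = 1.13e-10). Its ligand Gas6 went the other way, with 267 and 284 CPM in pB2, against 2.64 and 3.91 CPM in pB3, 0.272 and 0.490 CPM in Epcam hi, and 2.02 and 1.68 CPM in 687g, a log2 difference of 7.67 (SE 0.17, adjusted p = 1.13e-12). S100a6, a calcium-binding protein, had 260.0 and 232 CPM in pB2, against 11628 and 11119.7 CPM in pB3, 9290.0 and 7763 CPM in Epcam hi, and 14109.8 and 18298 CPM in 687g, a log2 difference of -5.57 (SE 0.23, adjusted p = 1.90e-10). Cd44, the hyaluronan receptor, was lower, at a log2 difference of -4.50 (SE 0.20, adjusted p = 3.88e-10), and Cav1, caveolin 1, by -7.14 (SE 0.38, adjusted p = 2.25e-09).

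Basement membrane genes were 3 higher and 11 lower of 23, with a median of -2.20. Col7a1, the anchoring fibril collagen, was lower, at a log2 difference of -7.68 (SE 0.31, adjusted p = 1.30e-10). Lama4, Fras1 and Frem2 were the higher members, of which Frem2 lost its call against each line under DESeq2. Fibrillar and matricellular matrix was 3 higher and 7 lower of 19, with a median of -0.58 (-0.35 from the fitted values). Tnc, tenascin C, had 3.11 and 3.09 CPM in pB2, against 993 and 945 CPM in pB3, 674 and 767 CPM in Epcam hi, and 348 and 213 CPM in 687g, a log2 difference of -7.55 (SE 0.29, adjusted p = 8.59e-11). Fbln2, fibulin 2, was lower, at a log2 difference of -7.72 (SE 0.30, adjusted p = 9.72e-11) and Fn1, fibronectin, by -4.18 (SE 0.34, adjusted p = 1.77e-07). Tgfbi had at most 1 read in a pB2 library and 3.47 to 72.9 CPM elsewhere. Bgn, biglycan, was higher, at a log2 difference of 5.70 (SE 0.21, adjusted p = 5.58e-11).

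Extracellular proteases and their inhibitors were 4 higher and 14 lower of 27, with a median of -3.60. Plau, the urokinase plasminogen activator, had 7.34 and 4.91 CPM in pB2, against 931 and 1018 CPM in pB3, 3142 and 1738 CPM in Epcam hi, and 260.3 and 326 CPM in 687g, a log2 difference of -7.20 (SE 0.34, adjusted p = 7.16e-10). Its receptor Plaur was lower, at a log2 difference of -4.55 (SE 0.28, adjusted p = 8.62e-09). Serpinb2, an inhibitor of urokinase, had 4.37 and 3.20 CPM in pB2, against 1212 and 1167 CPM in pB3, 4122 and 5109.6 CPM in Epcam hi, and 585 and 909 CPM in 687g, a log2 difference of -8.74 (SE 0.32, adjusted p = 5.24e-11). The tissue inhibitors of metalloproteinases split: Timp1 had 1.19 and 1.17 CPM in pB2, against 313 and 333 CPM in pB3, 109 and 101 CPM in Epcam hi, and 974 and 1292 CPM in 687g, and Timp3 had 655 and 807 CPM in pB2, against 12.1 and 13.2 CPM in pB3, 0.680 and 0.327 CPM in Epcam hi, and 1.07 and 1.82 CPM in 687g, log2 differences of -8.16 (SE 0.26, adjusted p = 2.08e-11) and 8.45 (SE 0.19, adjusted p = 1.06e-12).

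**Figure D5:**
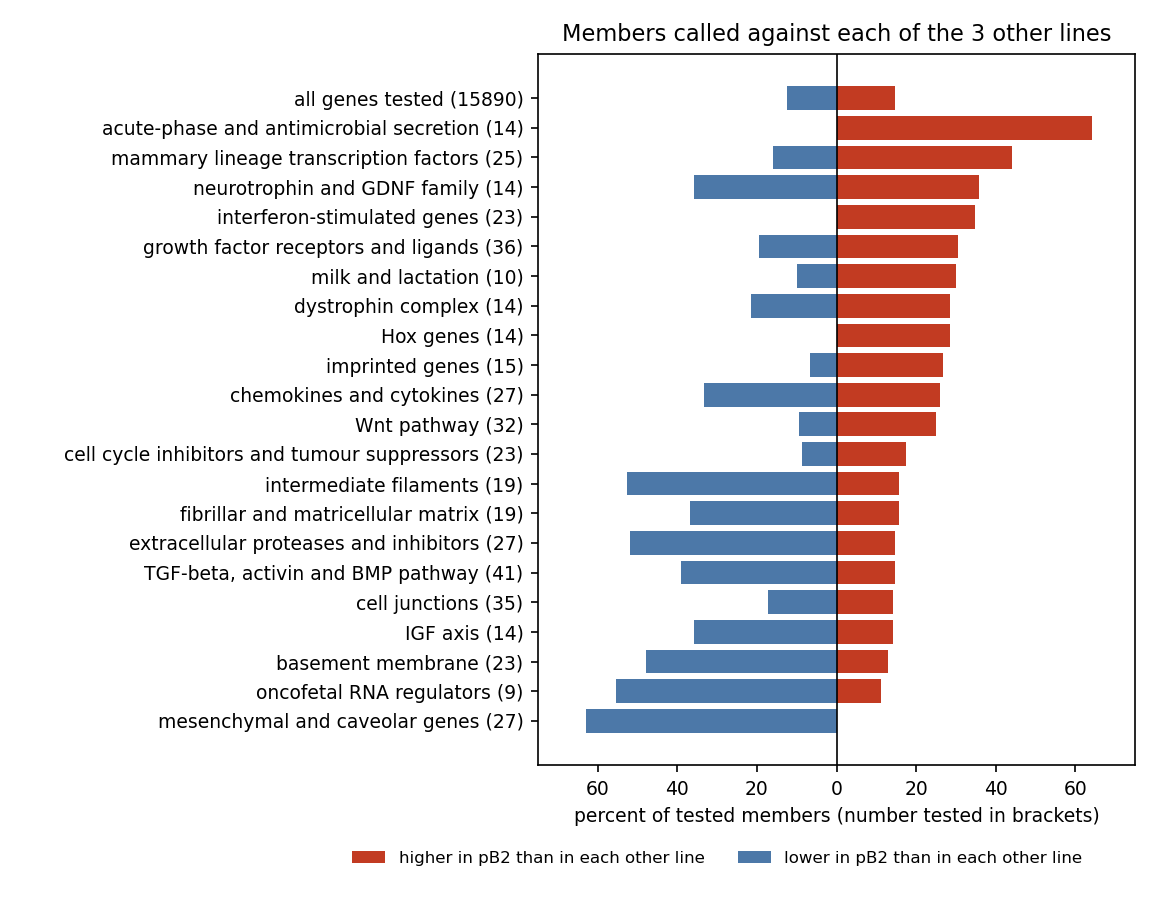
Percent of the tested members of each roster (number tested in brackets) called higher in pB2 (right) or lower in pB2 (left) than in each of the 3 other lines. All genes tested are at the top, with 14.6% higher and 12.5% lower; acute-phase genes extend farthest right and mesenchymal and caveolar genes farthest left.

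Growth factor pathways split by member. In the neurotrophin and GDNF family 5 of 14 were higher and 5 lower. Ntrk2 was on, whereas Bdnf, the ligand of its product, had 0.445 and 0.373 CPM in pB2, against 39.5 and 41.9 CPM in pB3, 3.60 and 4.79 CPM in Epcam hi, and 72.6 and 72.5 CPM in 687g, a log2 difference of -5.82 (SE 0.27, adjusted p = 5.65e-10). The IGF axis had 2 of 14 higher, Igfbp5 and Igfbp2, and 5 lower, among them the receptor Igf1r with 17.6 and 27.00 CPM in pB2, against 141 and 138 CPM in pB3, 62.9 and 62.3 CPM in Epcam hi, and 177 and 105 CPM in 687g. Of 36 growth factor receptors and ligands 11 were higher and 7 lower. The EGF receptor ligands Hbegf and Btc were lower like Areg, at log2 differences of -4.99 (SE 0.21, adjusted p = 1.95e-10) and -6.21 (SE 0.30, adjusted p = 8.14e-10), and Egfr itself by -2.23 (SE 0.22, adjusted p = 1.08e-06).

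In the TGF-beta, activin and BMP pathway 6 of 41 were higher and 16 lower, with a median of -0.94, and without pB2 replicate 1 the lower count was 10. The activin subunits split, with Inhba at 1.11 and 1.17 CPM in pB2, against 194 and 181 CPM in pB3, 259.9 and 393 CPM in Epcam hi, and 418 and 412 CPM in 687g, and Inhbb at 399 and 468 CPM in pB2, against 5.48 and 4.37 CPM in pB3, 6.46 and 6.48 CPM in Epcam hi, and 0.337 and 1.08 CPM in 687g, log2 differences of -8.00 (SE 0.28, adjusted p = 3.98e-11) and 7.26 (SE 0.19, adjusted p = 3.84e-12). Fst, the activin inhibitor follistatin, was higher, at a log2 difference of 6.34 (SE 0.18, adjusted p = 6.42e-12). The signal transducer Smad3 was lower, at a log2 difference of -2.97 (SE 0.20, adjusted p = 2.07e-08). In the Wnt pathway 8 of 32 were higher and 3 lower, with a median of 0.55. Besides the ligands and modulators already named, the receptors Fzd7 and Lgr4 were higher, at a log2 difference of 3.04 (SE 0.14, adjusted p = 5.93e-10) and 2.41 (SE 0.15, adjusted p = 7.70e-09), and Lgr6 was lower, at a log2 difference of -4.25 (SE 0.19, adjusted p = 3.19e-10).

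Chemokines and cytokines were 7 higher and 9 lower of 27, with a median of -1.99. Csf2, the granulocyte-macrophage growth factor, had 0.0741 and 0.213 CPM in pB2, against 110.0 and 104 CPM in pB3, 116 and 122 CPM in Epcam hi, and 5.85 and 44.1 CPM in 687g, and 687g replicate 1 was far below replicate 2. The dystrophin complex had 4 of 14 higher, among them Sntb1, Dag1 and Sgca, and 3 lower. Of the lower members Sgcd, delta-sarcoglycan, had no read in pB2 and at least 5.46 CPM elsewhere. Cell junction genes were 5 higher and 6 lower of 35, and 5 higher and 4 lower with raw totals. Imprinted genes were 4 higher and 1 lower of 15, with Usp29, a neighbour of Peg3 on chromosome 7, at 6.30 and 3.84 CPM in pB2, against 0 and 0.0652 CPM in pB3, 0 and 0.0544 CPM in Epcam hi, and 0 and 0 CPM in 687g.

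Oncofetal regulators were 1 higher and 5 lower of 9, with a median of -2.31 (-1.38 from the fitted values). Hmga1 had 4.75 and 4.91 CPM in pB2, against 133 and 145 CPM in pB3, 107 and 90.3 CPM in Epcam hi, and 101 and 80.9 CPM in 687g, a log2 difference of -4.49 (SE 0.21, adjusted p = 5.65e-10), and Igf2bp2 was lower, at a log2 difference of -3.90 (SE 0.20, adjusted p = 1.48e-09). Among 23 cell cycle inhibitors and tumour suppressors 4 were higher and 2 lower. Cdkn2c, which encodes the INK4 inhibitor p18, was higher, at a log2 difference of 2.15 (SE 0.13, adjusted p = 6.17e-09), and Cdkn1a, which encodes p21, was lower, at a log2 difference of -2.33 (SE 0.21, adjusted p = 3.69e-07). The higher count was 2 without pB2 replicate 1 or without pB3 replicate 1. Of 39 Hox genes 14 were tested, of which 4 were higher and the rest not called. Hoxa13 and Hoxa4 had enough counts to test only in pB2, so their direction was set by the filter. Hoxa13 had 5.19 and 6.83 CPM in pB2, against 0 and 0 CPM in pB3, 0 and 0.0544 CPM in Epcam hi, and 0 and 0 CPM in 687g, and Hoxa4 1.33 and 1.76 CPM in pB2, against 0.0677 and 0.196 CPM in pB3, 0.0680 and 0 CPM in Epcam hi, and 0.112 and 0.0674 CPM in 687g. Without pB3 replicate 1 the count was 1 and Hoxa4 lost its call against pB3 (adjusted p = 0.0533), and without pB2 replicate 1 it was 2.

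The limits of 10 and 1 CPM decide membership at the margins. Just inside the on only set were Gpd1 and Sox11, whose lower pB2 library had 10.1 and 10.2 CPM, and just outside were Mdh1b and Zfp951 at 9.76 and 9.60 CPM. At the lower limit Plcb1 and Fam189a2 were inside, each with 0.978 CPM in the highest other library, and Ctf1 and 5930430L01Rik outside at 1.09 and 1.11 CPM. For the off only set Zfpm2 and Cacnb2 were inside, with 10.2 and 10.7 CPM in the lowest other library, and Klk8 and Slc35d2 outside at 9.95 and 9.56 CPM. G930009F23Rik and Slc12a4 were inside, with 0.964 and 0.907 CPM in the higher pB2 library, and Ecm1 and Dusp10 outside at 1.01 and 1.04 CPM.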

How the data were processed

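Messenger RNA of 4 mouse mammary carcinoma lines was sequenced, 2 libraries per line. Per the labels, reads were single-end, aligned with STAR 2.6.1a to GRCm38, and the authors counted them per Ensembl gene with featureCounts on the reverse strand; the deposited values are whole-number counts, not normalised. How reads mapping to several genes were handled is not given in the sources used here.

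From the counts of 53379 genes, CPM was computed on TMM-scaled totals. Genes were kept by filterByExpr (15890), and edgeR 4.0.16 (R 4.3.3) fitted a quasi-likelihood model with 1 coefficient per line to all 8 libraries (residual df 4), so the lines share an estimate of the spread. Calls are two-sided at a Benjamini-Hochberg adjusted p under 0.05; the on only and off only rules carry no test. The floor for 0 counts is 3 counts over the group, and ratios from up to 3 counts have a 95% counting interval; both cover counting error only. Fits were checked on simulated counts. Alternatives were RLE factors, raw totals, no filter, DESeq2 1.42.0, limma-voom 3.58.1, a replicate block and leaving out each library. Gene positions come from GENCODE M21 and promoters from RefSeq GRCm38.p6.

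The members, lists and motifs were chosen with earlier results of these data known. Genes were named by rank of CPM in each set, by the largest smallest difference over the 3 comparisons outside the sets (6 per direction) and by up to 2 per list; others named, and the functional classes, were chosen after their values were seen.

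A few genes that the naming rule or the marker and neighbour lists include are not reported here.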

Additional observations from a re-analysis of the deposited data

How the results depend on the processing

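The size of both sets follows the limits. With 20 and 0.5 CPM in place of 10 and 1 CPM, 51 genes were on only and 25 off only in pB2, with 5 and 2 CPM 276 and 199, and with 0 counts required on the low side 8 and 1. Under raw totals the sets held 141 and 89 genes. Leaving out single libraries gave 137 to 147 and 93 to 101. Each omission removes a condition of the rule, so these counts could only stay or grow and do not measure stability.

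Total counts of calls, both directions together, stayed within 1.5 times of the values reported for the 5 comparisons. Lower calls against the mean, 3964, were 2624 without pB2 replicate 1, and the list counts that moved further stand beside those lists. Leaving out single libraries gave 6109 to 9672 calls against the mean of the other lines, 5032 to 8094 against pB3, 6039 to 9381 against Epcam hi, 6252 to 9294 against 687g and 3009 to 4510 against each line. DESeq2 called 8186 against the mean and 4028 against each line, and limma-voom 8668 and 4316.

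Replicate numbers do not pair the libraries: same-numbered deviations correlated at -0.0982 to 0.1733, over 0.1 in 1 of 6 pairs of lines. With a replicate block 8408 genes were called against the mean, 6995 against pB3, 8006 against Epcam hi, 8160 against 687g and 4211 against each line. Differences in genes with few reads in pB2 rest on those few reads, and 2 libraries per line limit the precision of every estimate.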
